A study of Rattus norvegicus with 9 samples.

Results

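Expression of 10 genes of cyclic GMP (cGMP) signalling was examined in prostates of male Sprague Dawley rats by one-colour Agilent microarrays. The genes were guanylyl cyclase C (Gucy2c), its peptide ligands guanylin (Guca2a) and uroguanylin (Guca2b), the nitric oxide synthases Nos1, Nos2 and Nos3, the soluble guanylyl cyclase subunits Gucy1a1 and Gucy1b1 (formerly Gucy1a3 and Gucy1b3), the cGMP phosphodiesterase Pde5a and the cGMP-dependent protein kinase Prkg1. Members were found by matching the RefSeq accession of each probe to these symbols, and all 10 genes were on the array, with 13 probes among 30356 probes in all. The set was chosen by the log2 signal of Gucy2c on these same arrays, where sham differed from both other groups, and the remaining members belong to the same pathway. Values of Gucy2c are therefore given as a description without a test.

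Rats were 6 weeks old at purchase and fell into 3 groups with 3 arrays each, which according to the methods came from 3 rats per group. In the sham group, rats underwent a sham operation for castration and received corn oil injections and oral vehicle (distilled water). In the BPH group, benign prostatic hyperplasia was induced by castration and subcutaneous dihydrotestosterone (3 mg/kg) once daily for 4 weeks, together with oral vehicle. In the BPH+ghrelin group, castrated and dihydrotestosterone-injected rats received rat ghrelin (20 nmol/kg) by gavage once daily for 2 weeks, starting after the first 2 weeks of injections. These treatments are as the methods give them, while a figure legend of the study names testosterone and another dose and route of ghrelin, and the sources used here do not settle which applied. Castration and androgen were shared by both BPH groups, and their separate parts cannot be told apart with these groups. In whole tissue, fewer cells of a type and less RNA per cell cannot be told apart either. Labels gave prostate as the tissue, and the prostate gene Pbsn and the smooth muscle genes Acta2 and Myh11 were well above background on all 9 arrays.

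cGMP is a second messenger that is made by 2 kinds of enzyme. Gucy2c is a membrane receptor cyclase, best known from intestinal epithelium, where guanylin and uroguanylin bind to it and control salt and water transport. Soluble guanylyl cyclase is a heterodimer of an alpha and a beta subunit and is switched on by nitric oxide. In smooth muscle, including that of the prostate and urinary tract, its product activates Prkg1 and promotes relaxation, while Pde5a breaks cGMP down, and inhibitors of Pde5a are used against urinary symptoms in men with BPH.

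Arrays differed in brightness, with a median raw signal between 40.9 (sham 2) and 133 (BPH 1), and values were therefore set on 1 scale by quantile normalization and are given as log2 normalized signal. A probe was called well above background by the scanner software on 61.4% of probes in sham 2 and on 69.5% to 75% in the other arrays. In each group, 1 array stood apart by lying between both others for most probes. This was sham 3 (76.9% of 17858 probes), BPH 2 (74.6%) and BPH+ghrelin 2 (72.2%), compared to 8.33% to 15% for each of the other arrays, and the counts of genes passing the test are given below with and without these 3 arrays. Whether they hold RNA that is independent of the other arrays of their group was not tested, and n = 3, the errors and the p-values given here assume that they do. Arrays also shared scans. The 3 BPH arrays were scanned together with BPH+ghrelin 1, BPH+ghrelin 2 and 3 were scanned together with sham 1 and 2, and sham 3 was scanned alone, so that no scan held both a BPH and a sham array. Fits with scan as a fixed block compare arrays within scans only. In these fits, BPH and sham are therefore compared indirectly, through the BPH+ghrelin arrays, with BPH+ghrelin 1 as the only link to the BPH arrays. Sham 3, alone in its scan, does not enter that difference. Between BPH+ghrelin and BPH, such a fit rests on BPH+ghrelin 1 alone on the ghrelin side. All 3 comparisons share groups with each other and are not independent.

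Gucy2c was detected in sham prostates only. Its brighter probe (A_44_P837219) showed a log2 normalized signal of 5.48, 5.19 and 5.18 in the 3 sham arrays. In the BPH group the same probe was at 0.76, 1.01 and 0.63. In the BPH+ghrelin group it was at 0.60, 1.43 and 0.74. The probe was well above background on 3 of 3 sham arrays and on 0 of 6 arrays from castrated rats, and the groups were separated by a wide gap. Before normalization the raw signal was 49.2, 17.8 and 33.5 in sham and between 1.46 and 2.88 in the other 6 arrays. Because the probe was not well above background in both BPH groups, only a bound of the difference can be given, computed against the lowest signal called well above background on each array. Gucy2c signal was at least 6.64-fold lower in BPH than in sham and at least 5.97-fold lower in BPH+ghrelin than in sham, where the measured means differed by -4.48 and -4.36 on the log2 scale. Between BPH (0.80 ± 0.19, SD, n = 3) and BPH+ghrelin (0.92 ± 0.44, SD, n = 3) no fold is given, as both were below the background limit.

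**Figure D1:**
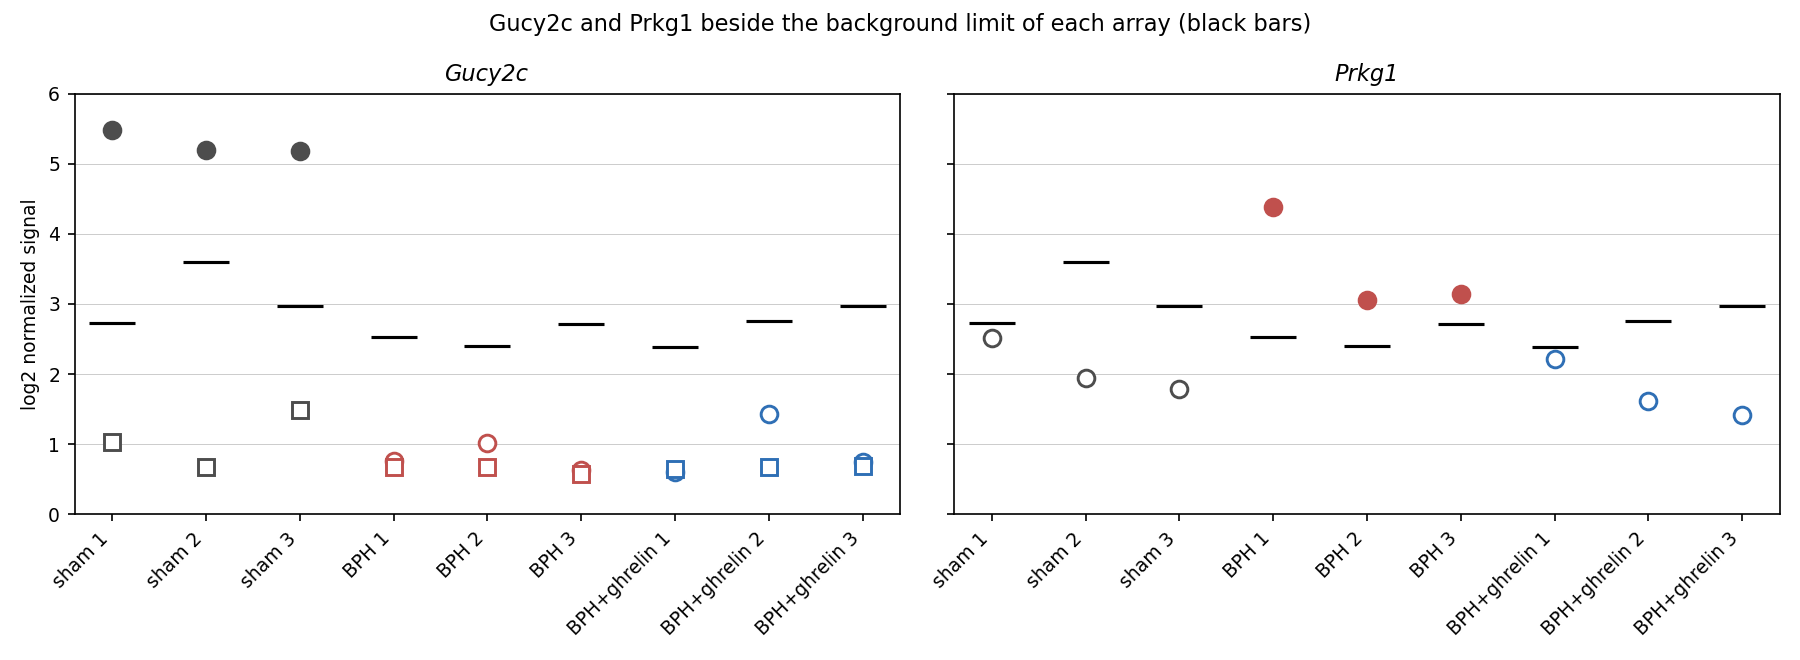
Log2 normalized signal of Gucy2c (left) and Prkg1 (right) on each of the 9 arrays, coloured by group. Circles show the brighter probe, squares the other Gucy2c probe, filled symbols mark arrays where the probe was well above background, and black bars show the lowest log2 signal called well above background on that array. The brighter Gucy2c probe lies above the bar on the 3 sham arrays and below it on the other 6, and Prkg1 lies above it on the 3 BPH arrays and below it on the other 6.

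The other Gucy2c probe (A_64_P046614) did not show this pattern. It was not well above background on any of the 9 arrays, with 1.03, 0.67 and 1.49 in sham, 0.68, 0.67 and 0.58 in BPH and 0.64, 0.67 and 0.69 in BPH+ghrelin. The pattern therefore rests on 1 of 2 probes, and the gap between both probes in sham was not tested further. Detection on all 3 sham arrays and on no other array was shared by 11 of 20113 genes with a probe well above background on at least 3 arrays (0.0547%). Taken singly, detection on 3 of 3 sham and 0 of 3 BPH arrays was found for 0.107% of 19552 genes, and on 3 of 3 sham and 0 of 3 BPH+ghrelin arrays for 0.292% of 19197 genes. Among these 11, the bound of Gucy2c (at least 6.3-fold over both BPH groups together) ranked 3. The set was chosen by this Gucy2c difference, so that rarity and rank partly follow from that choice and are no support for it. BPH+ghrelin 2 and 3 were scanned with sham 1 and 2, and the measured difference within that scan was -4.25. Its size is not exact, as the probe was not well above background on these BPH+ghrelin arrays. The measured difference between BPH and sham became -2.93 in the deposited normalized values and -0.55 after normexp background correction, whose offset raises dim signals.

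Genes with the most similar course to Gucy2c over the 9 arrays were described by Pearson correlation of log2 values, which here mainly reflects a step between sham and both other groups. The 5 highest values belonged to Hmx1, a homeobox transcription factor (r = 0.991, Spearman's rho 0.783), Tfpi, the tissue factor pathway inhibitor (r = 0.991, rho 0.75), Shisa5 (r = 0.985, rho 0.667), Rhobtb1 (r = 0.985, rho 0.733) and Has1, a hyaluronan synthase (r = 0.984, rho 0.483). All 5 were well above background on 9 of 9 arrays, in contrast to Gucy2c. Tfpi was between 10.49 and 10.65 in sham and between 7.73 and 8.11 in the other groups, and Rhobtb1 between 11.06 and 11.22 in sham and between 8.64 and 9.12 in the others. An r above 0.9 was found for 160 of 11790 genes (1.36%), and the 9 arrays share their groups and scans, so that no p value is given.

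Markers of other tissues were examined beside Gucy2c. Of 10 intestinal epithelium markers, 7 had a probe, and their summed signal was 363 to 386 in sham, 351 to 591 in BPH and 452 to 476 in BPH+ghrelin, overlapping between sham and BPH, with the bright brush border peptidase Anpep adding most in BPH. Of the defining intestinal genes, Fabp2 was not well above background on any array, Vil1 was above it on 1 of 3 sham arrays and 0 of 6 others, and the intestinal transcription factor Cdx2 on 2 of 3 sham, 0 of 3 BPH and 2 of 3 BPH+ghrelin arrays. The other 4 intestinal markers (Lgals4, Cdh17, Anpep and Alpi) were well above background on all 9 arrays. Gene by gene, BPH means lay below sham means for 3 of these 4 (median log2 difference -0.29), where Cdh17 differed by only -0.01. Alpi, an intestinal alkaline phosphatase, was called (-0.65 ± 0.12, SE, adjusted p = 0.0259, limma), beside 4.34% of all genes. An unadjusted p under 0.05 (limma) was found for 3 of 4, namely Alpi, Lgals4 and Anpep, which was higher, beside 26.5% of all genes. Lgals4 differed by -0.56 (adjusted p = 0.0727, limma) and Anpep by 1.23 (adjusted p = 0.0643, limma). In BPH+ghrelin against sham, 3 of 5 tested were lower (median -0.42), and Cdh17 was called (-0.73, adjusted p = 0.0379, limma), beside 3.3% of all genes called lower. Lgals4 rose from BPH to BPH+ghrelin by 1.04 (adjusted p = 0.0249, limma).

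Of 10 striated muscle markers, 9 had a probe and 8 were tested, of which 2 were called lower in both BPH groups. In BPH against sham, 7 of 8 had a lower mean (median log2 difference -1.21, 2 called lower), and in BPH+ghrelin against sham 6 of 8 (median -1.35, 2 called lower), beside a median of 0.04 for all genes tested in each and 2.18% and 3.3% of them called lower. The calls were Pvalb, which encodes the calcium buffer parvalbumin, with means of 7.35 in sham, 4.36 in BPH and 5.18 in BPH+ghrelin, and the muscle creatine kinase Ckm, with 6.95, 5.05 and 5.00. Acta1 differed by 0.54 in BPH and 0.19 in BPH+ghrelin against sham, and Myh1 by -0.63 and 0.67, none of them called. The summed signal of the striated muscle markers, to which the bright Tnnc2 added most, was 3005 to 3235 in sham, 1186 to 3280 in BPH and 1657 to 2099 in BPH+ghrelin, overlapping between sham and BPH. The summed signal of seminal vesicle and coagulating gland markers (6 of 7 with a probe) was 90747 to 158386 in sham, 743 to 28516 in BPH and 576 to 3967 in BPH+ghrelin. Both BPH groups lay below sham without overlap, as they also did for the prostate secretory markers given below. Within BPH this sum varied widely, while Gucy2c was below the background limit on all BPH arrays. In BPH against sham, 4 of the 6 seminal vesicle and coagulating gland markers were lower and 2 higher (median log2 difference -3.5). Of these 6, 2 were called lower, beside 2.18% of all genes. In BPH+ghrelin against sham, 4 were also lower and 2 higher (median -4.21), and 4 were called lower, beside 3.3% of all genes. The bright secretory genes Semg1 and Svs4 made up most of their sum. Svs5 and Svs6 went the other way, with means of 3.08 and 4.22 in sham and 3.33 and 5.50 in BPH. The summed signal of 11 prostate secretory markers was 211296 to 215694 in sham, 66256 to 98312 in BPH and 74542 to 88193 in BPH+ghrelin, to which Pbsn and Msmb added most in sham. Of the 10 prostate markers tested, 5 were higher and 5 lower in BPH than in sham (median -0.08). The part of these tissues in the Gucy2c values was not tested.

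**Figure D2:**
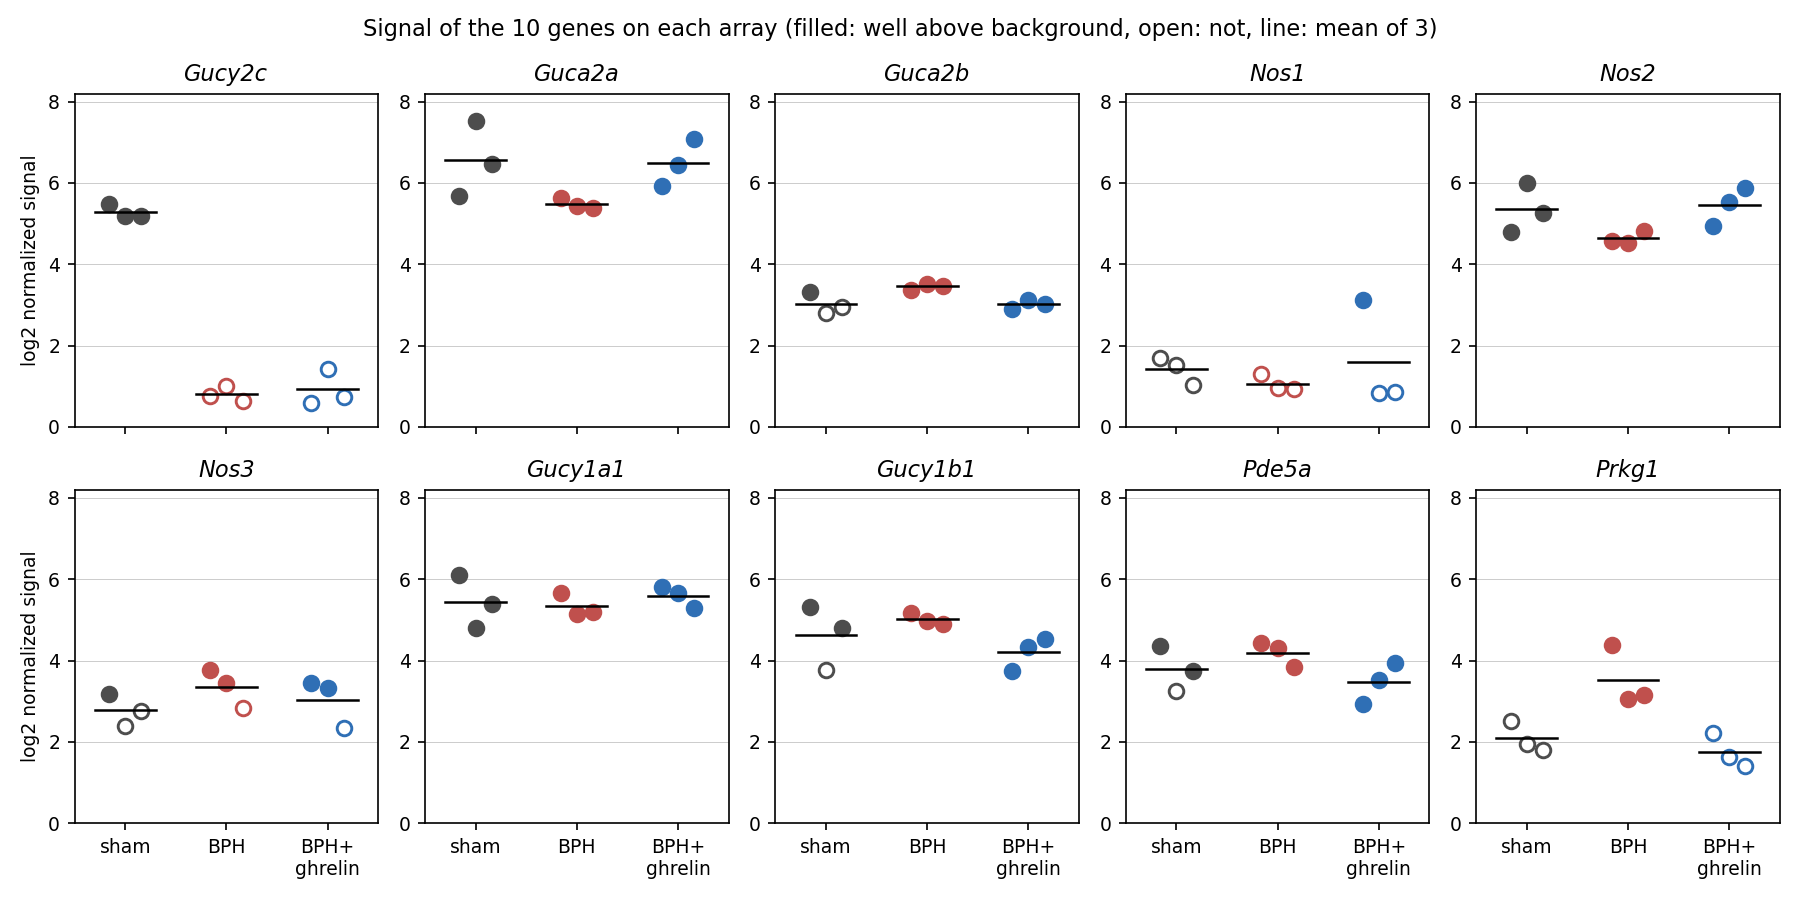
Log2 normalized signal of the 10 genes (brighter probe) on each array, by group, with replicates 1 to 3 from left to right. Filled circles mark arrays where the probe was well above background, open circles arrays where it was not, and lines show the mean of 3 arrays. Gucy2c separates sham from both other groups, Prkg1 separates BPH from both other groups, and Guca2a and Nos2 are tight in BPH and spread in sham and BPH+ghrelin.

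Both ligands of Gucy2c were detected. Guca2a, which encodes guanylin, was well above background on 9 of 9 arrays, with 5.68, 7.52 and 6.46 in sham, 5.63, 5.43 and 5.38 in BPH and 5.93, 6.43 and 7.09 in BPH+ghrelin. BPH arrays were the lowest and did not overlap with the other groups, although sham 1 was close to BPH 1. Mean Guca2a differed by -1.08 ± 0.45 (log2 difference ± SE) between BPH and sham (adjusted p = 0.178, limma over all genes tested) and by 1.01 between BPH+ghrelin and BPH (adjusted p = 0.248, limma), and neither passed the test. Guca2b, which encodes uroguanylin, ran the other way at low signal. It was at 3.31, 2.80 and 2.94 in sham, 3.38, 3.52 and 3.47 in BPH and 2.90, 3.12 and 3.02 in BPH+ghrelin, and was well above background on 1 of 3 sham arrays and on all 6 others. BPH arrays were the highest without overlap, with a log2 difference of 0.44 ± 0.15 (SE) to sham (adjusted p = 0.125, limma) and -0.44 between BPH+ghrelin and BPH (adjusted p = 0.164, limma). Without sham 1, Guca2a passed the test in BPH against sham, with a log2 difference of -1.51 (adjusted p = 0.0439, limma), in a fit that called 3069 of all genes tested instead of 849. Sham 1 was the single sham array with Guca2b well above background, so that without it Guca2b entered the test only through the BPH arrays, and nothing is read from that fit for Guca2b. Without sham 2, Guca2a differed by -0.59 (adjusted p = 0.348, limma) and Guca2b by 0.33 (adjusted p = 0.211, limma). With scan as a fixed block the Guca2a difference between BPH and sham was -0.29, and after normexp correction it was -0.53. Guca2b differed by 0.14 after 75th percentile scaling and by 0.01 after normexp correction. Between BPH+ghrelin and BPH, alternatives that kept all arrays compared or left out those lying between gave 0.45 to 1.21 for Guca2a and -0.56 to -0.02 for Guca2b.

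Guca2a and Guca2b are neighbours among the protein-coding genes of the rat genome, and their promoters are shown because the mean values of both genes lay on opposite sides of sham and of BPH+ghrelin in the BPH group. The 250 bases before each gene's start are given in gene direction, from RefSeq (GRCr8), for Guca2a (chr5:138522196-138522445, plus strand) and Guca2b (chr5:138534211-138534460, minus strand). Capitals mark the letters TGTTCT, the reverse of AGAACA, which is a half-site of the androgen receptor motif.
Guca2a: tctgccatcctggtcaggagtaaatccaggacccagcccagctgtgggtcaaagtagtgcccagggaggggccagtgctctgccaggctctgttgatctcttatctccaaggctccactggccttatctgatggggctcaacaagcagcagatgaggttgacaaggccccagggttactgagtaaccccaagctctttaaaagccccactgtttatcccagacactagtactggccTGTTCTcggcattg
Guca2b: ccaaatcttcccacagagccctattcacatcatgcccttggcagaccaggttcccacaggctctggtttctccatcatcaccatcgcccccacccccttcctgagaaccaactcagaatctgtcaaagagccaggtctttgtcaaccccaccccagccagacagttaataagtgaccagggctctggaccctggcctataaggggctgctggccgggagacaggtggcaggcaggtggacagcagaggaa
The half-site (AGAACA, both strands) was found once in Guca2a, with its first base at position -14 from the start, and not in the window of Guca2b. It is short and frequent, being present in 17.5% of 33469 promoter windows of the same length. Of the 8 members with a promoter entry, Guca2a was the only one with these letters. A match is a description of letters and no evidence of binding.

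Nitric oxide synthases make nitric oxide from arginine. Nos2, the inducible form, was well above background on 9 of 9 arrays. It was at 4.80, 6.00 and 5.27 in sham, 4.57, 4.53 and 4.83 in BPH and 4.93, 5.54 and 5.88 in BPH+ghrelin. BPH values lay at the low end, overlapping with sham (BPH 3 was above sham 1) but not with BPH+ghrelin. The log2 difference was -0.71 in BPH against sham (adjusted p = 0.211, limma) and 0.81 in BPH+ghrelin against BPH (adjusted p = 0.216, limma). In BPH against sham it was -0.39 without sham 2 and -0.99 without sham 1, -0.23 after normexp correction and 0.02 with scan as a fixed block. Between BPH+ghrelin and BPH it was 0.27 after normexp correction and 0.29 with the fixed scan block.

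Nos3, the endothelial form, was near the background limit, and was well above background on 1 of 3 sham, 2 of 3 BPH and 2 of 3 BPH+ghrelin arrays. It was at 3.17, 2.39 and 2.77 in sham, 3.76, 3.45 and 2.82 in BPH and 3.44, 3.33 and 2.33 in BPH+ghrelin, with overlap between all groups. Its log2 difference was 0.57 in BPH against sham (adjusted p = 0.339, limma) and -0.31 in BPH+ghrelin against BPH (adjusted p = 0.646, limma). The difference between BPH and sham was 0.06 in the deposited values, 0.08 after normexp correction, 0.25 after 75th percentile scaling and -0.04 with scan as a fixed block, and ranged from 0.36 to 0.83 when 1 array was left out. Between BPH+ghrelin and BPH it ranged from -0.57 to 0.04 when 1 array was left out. The summed signal of 9 endothelial markers, to which the bright Kdr and Pecam1 added most, was 1273 to 1562 in sham, 941 to 1430 in BPH and 848 to 979 in BPH+ghrelin. Gene by gene, 5 of 9 had a higher mean in BPH than in sham (median log2 difference 0.08). Of these 9, 0 were called by limma and 3 had an unadjusted p under 0.05, beside 4.34% and 26.5% of all genes. In BPH+ghrelin, 7 of 8 had a lower mean than in BPH (median -0.29), and 1 was called lower, beside 0.987% of all genes. The endothelial tight junction gene Cldn5 had means of 4.98 in sham, 5.50 in BPH and 4.15 in BPH+ghrelin, and was called between BPH+ghrelin and BPH (-1.35, adjusted p = 0.0273, limma). The angiopoietin receptor Tek had means of 2.66, 3.88 and 2.08 and was not called. BPH had the highest mean for both, as for Nos3. Sham had the highest mean for Pecam1 (9.08, 8.77 and 8.46 in sham, BPH and BPH+ghrelin), Kdr (9.45, 9.03 and 8.75), Flt1 (4.33, 4.05 and 3.82) and Cdh5 (5.12, 4.68 and 4.87). The part of endothelial content in the Nos3 values was not tested.

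Nos1, the neuronal form, was detected on 1 array. Its brighter probe was at 3.12 in BPH+ghrelin 1, and between 0.83 and 1.69 in the other 8 arrays, where it was not well above background. The other Nos1 probe was not well above background on any array, so that Nos1 did not reach the filter and was not tested in any comparison. The summed signal of 10 nerve markers was 1243 to 1584 in sham, 828 to 3059 in BPH and 2818 to 6110 in BPH+ghrelin, which followed 1 bright gene, Uchl1 (means of 10.12, 10.44 and 11.95). Among the 4 nerve markers tested in BPH+ghrelin against BPH, the median log2 difference was 0.02.

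Soluble guanylyl cyclase is the receptor of nitric oxide, and transcripts of both of its subunits were detected. Gucy1a1, the alpha subunit, was well above background on 9 of 9 arrays, with 6.10, 4.79 and 5.39 in sham, 5.66, 5.14 and 5.20 in BPH and 5.80, 5.67 and 5.29 in BPH+ghrelin. The groups overlapped, and log2 differences were -0.09 in BPH against sham (adjusted p = 0.877, limma) and 0.25 in BPH+ghrelin against BPH (adjusted p = 0.682, limma). Gucy1b1, the beta subunit, was at 5.31, 3.76 and 4.79 in sham, 5.16, 4.97 and 4.90 in BPH and 3.73, 4.33 and 4.54 in BPH+ghrelin. BPH+ghrelin values lay below all BPH values, with a log2 difference of -0.81 (adjusted p = 0.262, limma), which did not pass the test, and the difference between BPH and sham was 0.39 (adjusted p = 0.526, limma). The latter ranged from -0.04 to 0.73 when 1 array was left out and was 1.18 with scan as a fixed block, and the former was -0.23 after normexp correction. The second Gucy1b1 probe showed overlapping groups, with 3.92, 3.50 and 3.75 in sham, 3.92, 3.66 and 4.07 in BPH and 3.79, 3.34 and 3.72 in BPH+ghrelin.

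Gucy1a1 and Gucy1b1 are also neighbours on the chromosome, and their promoters are shown as the pair that encodes 1 enzyme. The windows are from RefSeq (GRCr8), in gene direction, for Gucy1a1 (chr2:169779624-169779873, minus strand) and Gucy1b1 (chr2:169696988-169697237, minus strand). Capitals mark the GC box GGGCGG.
Gucy1a1: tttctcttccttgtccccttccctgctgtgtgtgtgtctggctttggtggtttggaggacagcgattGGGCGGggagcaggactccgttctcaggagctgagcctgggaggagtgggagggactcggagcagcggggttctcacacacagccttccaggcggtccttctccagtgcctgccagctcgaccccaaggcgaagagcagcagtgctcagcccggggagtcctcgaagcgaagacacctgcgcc
Gucy1b1: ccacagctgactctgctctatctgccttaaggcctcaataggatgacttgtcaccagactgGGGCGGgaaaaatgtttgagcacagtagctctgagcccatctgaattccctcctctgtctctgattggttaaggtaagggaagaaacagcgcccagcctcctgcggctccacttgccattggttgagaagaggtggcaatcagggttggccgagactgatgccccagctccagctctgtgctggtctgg
The GC box (GGGCGG, both strands) started at position -183 in Gucy1a1 and at position -189 in Gucy1b1. It was also found in Nos1, Nos3 and Pde5a, and therefore in 5 of 8 member promoters, compared to 30.5% of all 33469 windows. It was not found in Guca2a, Guca2b or Prkg1. The CCAAT box (CCAAT, both strands) was found in Gucy1a1 and Gucy1b1 but in none of the other 6, compared to 34% of all windows. In Gucy1a1 the matches of both motifs overlapped. The TATA box (TATAAA, both strands) was found in 0 of 8 member promoters and in 12.9% of all windows.

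Pde5a, which hydrolyses cGMP, was detected on 8 of 9 arrays. It was at 4.36, 3.26 and 3.74 in sham, 4.44, 4.30 and 3.85 in BPH and 2.92, 3.52 and 3.95 in BPH+ghrelin, where the lowest value of 2.92 belonged to BPH+ghrelin 1. All groups overlapped. Its log2 difference was 0.41 in BPH against sham (adjusted p = 0.46, limma) and -0.74 in BPH+ghrelin against BPH (adjusted p = 0.262, limma). In BPH against sham it was 0.15 without sham 2 and 0.70 without sham 1, 0.09 after normexp correction and 0.18 after 75th percentile scaling. With scan as a fixed block, where BPH and sham meet only through the BPH+ghrelin arrays, it was 1.2. Between BPH+ghrelin and BPH it ranged from -0.98 to -0.47 when 1 array was left out and was -0.11 after normexp correction.

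Prkg1, the kinase through which cGMP relaxes smooth muscle, was detected in the BPH group only. Its single probe was at 4.38, 3.06 and 3.14 in BPH, where it was well above background on 3 of 3 arrays. It was at 2.52, 1.95 and 1.79 in sham and at 2.22, 1.62 and 1.41 in BPH+ghrelin, where it was not well above background on any array. BPH values lay above all other values, with BPH 1 clearly the highest. Given as bounds, the signal in BPH was at least 1.35-fold higher than in sham, and in BPH+ghrelin it was at least 1.77-fold lower than in BPH. The measured means were 3.53 in BPH, 2.09 in sham and 1.75 in BPH+ghrelin. Prkg1 entered both tests only through the BPH arrays, where it was high, so that the limma values (adjusted p = 0.0739 against sham and 0.0667 between BPH+ghrelin and BPH) are given for completeness and nothing is read from them.

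Detection on 3 of 3 BPH arrays and 0 of 6 others was shared by 55 of 20113 genes (0.273%), in which the bound of Prkg1 (at least 1.54-fold over both other groups) ranked 7. These genes were picked by the pattern in which Prkg1 is high, so that count and rank are a description only. Detection on 3 of 3 BPH and 0 of 3 sham arrays was found for 1.21% of 19552 genes, and on 3 of 3 BPH and 0 of 3 BPH+ghrelin arrays for 0.795% of 19749 genes. After normexp correction the measured log2 differences of Prkg1 went from 1.44 and -1.78 to 0.12 and -0.17. The summed signal of 9 smooth muscle markers, to which the bright genes Mylk and Actg2 added most, overlapped between groups, with 44289 to 59074 in sham, 39858 to 68480 in BPH and 45414 to 49250 in BPH+ghrelin. Gene by gene, 8 of the 9 had a lower mean with ghrelin than in BPH (median log2 difference -0.49), and 1 was called lower, beside 0.987% of all genes. In BPH, 7 of 9 were higher than in sham (median 0.15). Of the 9, 0 were called by limma and 1 had an unadjusted p under 0.05, beside 4.34% and 26.5% of all genes. The called gene was Myh11, the smooth muscle myosin heavy chain (-0.96, adjusted p = 0.0157, limma), with group means of 11.44 in sham, 11.33 in BPH and 10.37 in BPH+ghrelin. Lmod1, a smooth muscle leiomodin, had means of 4.01, 5.04 and 3.50, and was not called in BPH against sham (adjusted p = 0.0973, limma) or between BPH+ghrelin and BPH (adjusted p = 0.0569, limma). Means were not highest in BPH for Myh11, for Smtn (9.71, 9.33 and 9.14) or for Mylk (14.70, 14.78 and 14.82). All 5 fibroblast markers had a higher mean in BPH than in sham (median 0.34). Of these, 0 were called by limma and 0 had an unadjusted p under 0.05, beside 4.34% and 26.5% of all genes. In BPH+ghrelin, 4 of 5 had a lower mean than in BPH (median -0.32). The matrix proteoglycan Lum was called lower (-1.65, adjusted p = 0.024, limma), beside 0.987% of all genes. The part of smooth muscle and fibroblast content in the Prkg1 values was not tested.

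The promoter of Prkg1 is shown as that of the member detected in BPH only (chr1:239052185-239052434, GRCr8, minus strand, from RefSeq). None of the 4 motifs searched was found in it, and it holds no capitals.
Prkg1: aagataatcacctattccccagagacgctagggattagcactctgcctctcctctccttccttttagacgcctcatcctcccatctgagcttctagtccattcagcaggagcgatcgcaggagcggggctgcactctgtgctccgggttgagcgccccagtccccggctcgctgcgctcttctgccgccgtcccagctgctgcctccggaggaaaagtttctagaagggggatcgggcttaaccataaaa

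**Figure D3:**
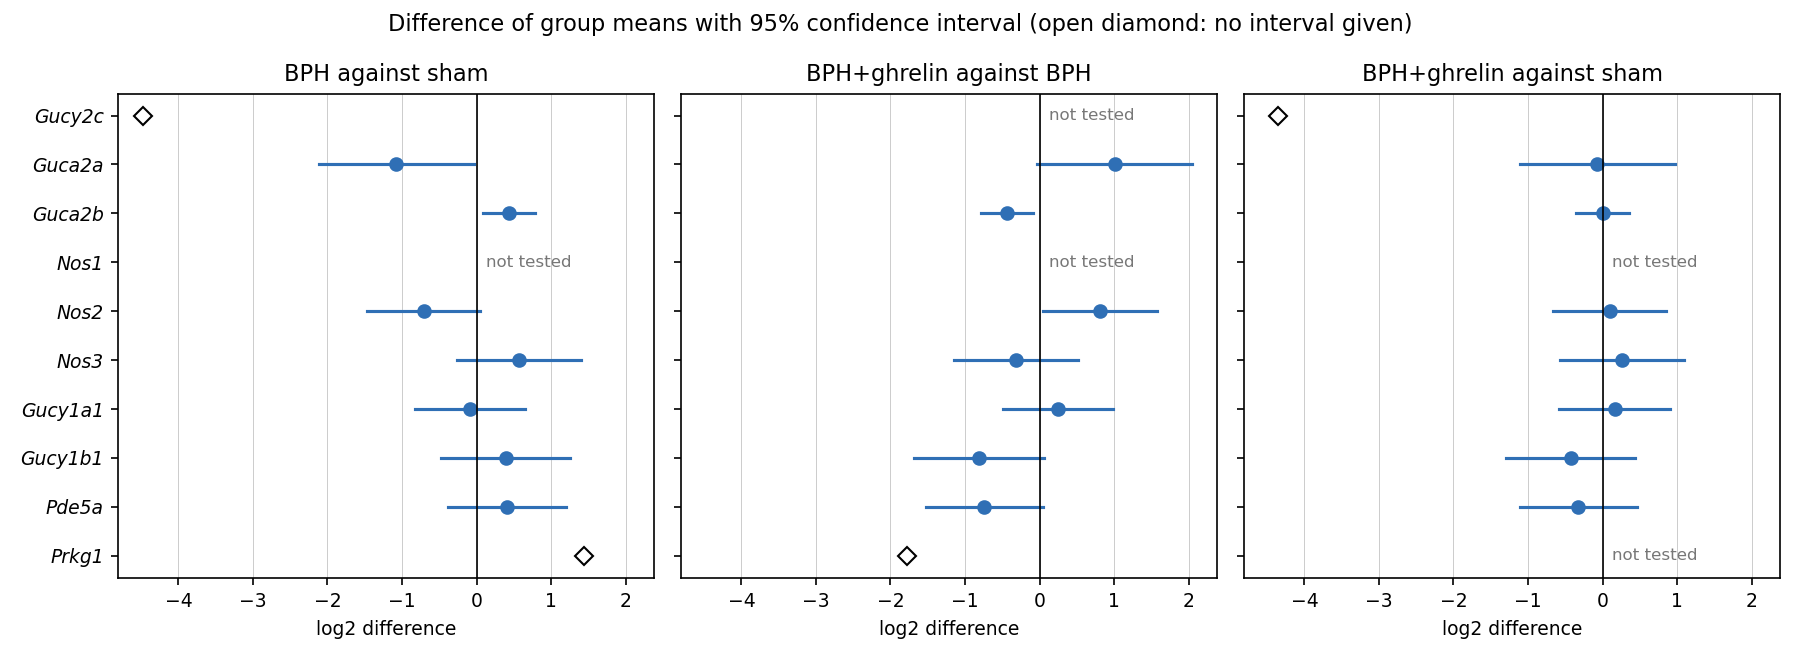
Log2 difference of group means for each of the 10 genes in the 3 comparisons. Circles and lines show the difference and its 95% confidence interval from the limma fit, open diamonds without an interval show Gucy2c and Prkg1, which were not above background in 1 of the groups compared, and genes that did not reach the filter, or were below the limit in both groups, are marked as not tested. Guca2a and Nos2 lie below 0 in BPH against sham and above 0 in BPH+ghrelin against BPH, and Guca2b, Nos3, Gucy1b1, Pde5a and Prkg1 lie on the opposite sides.

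None of the tested members passed in any comparison, and Gucy2c was not tested. For BPH against sham, 0 of 8 tested members were called at an adjusted p under 0.05, compared to 4.34% of the 19552 genes that entered the test. Between BPH+ghrelin and BPH it was 0 of 8, compared to 1.48% of 19749 genes, and between BPH+ghrelin and sham 0 of 7, compared to 6.29% of 19197 genes. At an unadjusted p under 0.05, 3 of 8, 3 of 8 and 0 of 7 members were found, beside 26.5%, 21.1% and 23.7% of all genes. Separation of the 2 groups without any overlap of arrays was seen for 3 of 8, 5 of 8 and 0 of 7 members, beside 31.3%, 39.2% and 30.4% of all genes. With 7 or 8 members tested, these counts are a description, and in both comparisons with the BPH group they include Prkg1. The median log2 difference of the tested members was 0.40 in BPH against sham and -0.38 in BPH+ghrelin against BPH, beside 0.04 and 0.02 for all genes tested.

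For the 7 members tested between BPH+ghrelin and sham, adjusted p was between 0.546 and 0.997 (limma), and their median log2 difference was 0, beside 0.04 for all genes. The order of the group means was BPH lowest for Guca2a, Nos2 and Gucy1a1, and BPH highest for Guca2b, Nos3, Gucy1b1, Pde5a and Prkg1. No pair of groups that was tested passed for any of these genes. With 3 arrays per group a missed threshold does not show equal levels, and for Guca2a the 95% confidence interval in BPH against sham reached from -2.12 to -0.04.

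Within scans, the comparison rests on few arrays. BPH+ghrelin 1 shared its scan with the 3 BPH arrays, and its distance from their mean (log2) was 0.45 for Guca2a, -0.56 for Guca2b, 0.29 for Nos2, 0.09 for Nos3, 0.47 for Gucy1a1, -1.28 for Gucy1b1 and -1.28 for Pde5a. Signs were the same as those of the differences of group means except for Nos3. This likeness is partly built in, as BPH+ghrelin 1 is part of its group mean and the BPH arrays are the same. Nothing is read from it. BPH+ghrelin 2 and 3 shared a scan with sham 1 and 2, and their means differed by between -0.10 (Gucy1b1) and 0.31 (Nos2) among the 7 members tested. BPH and sham were not scanned together, and their difference has no value within a scan.

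Other genes of nitric oxide and cGMP signalling were counted from a list of 55 genes, of which 53 had a probe. Between BPH and sham, 3 of 40 tested genes were called (7.5%), all of them lower in BPH, beside 2.18% of all genes called lower. Lower signal in BPH+ghrelin was called for 3 of 39 genes against sham (7.69%, beside 3.3% of all genes), and no gene was called higher. Against BPH, limma called 0 of 40 (beside 1.48% of all genes, 0.987% lower), and 7 of 40 had an unadjusted p under 0.05 (beside 21.1% of all genes). All but 1 of these calls concerned supply of arginine or cofactor to the synthases or their regulators, a group of 15 tested genes. Groups of natriuretic peptides with their receptor cyclases (6 tested), phosphodiesterases and cGMP efflux (8 tested), other soluble cyclase subunits (1 tested) and intestinal transport targets of guanylin (2 tested) had no call in any comparison.

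**Figure D4:**
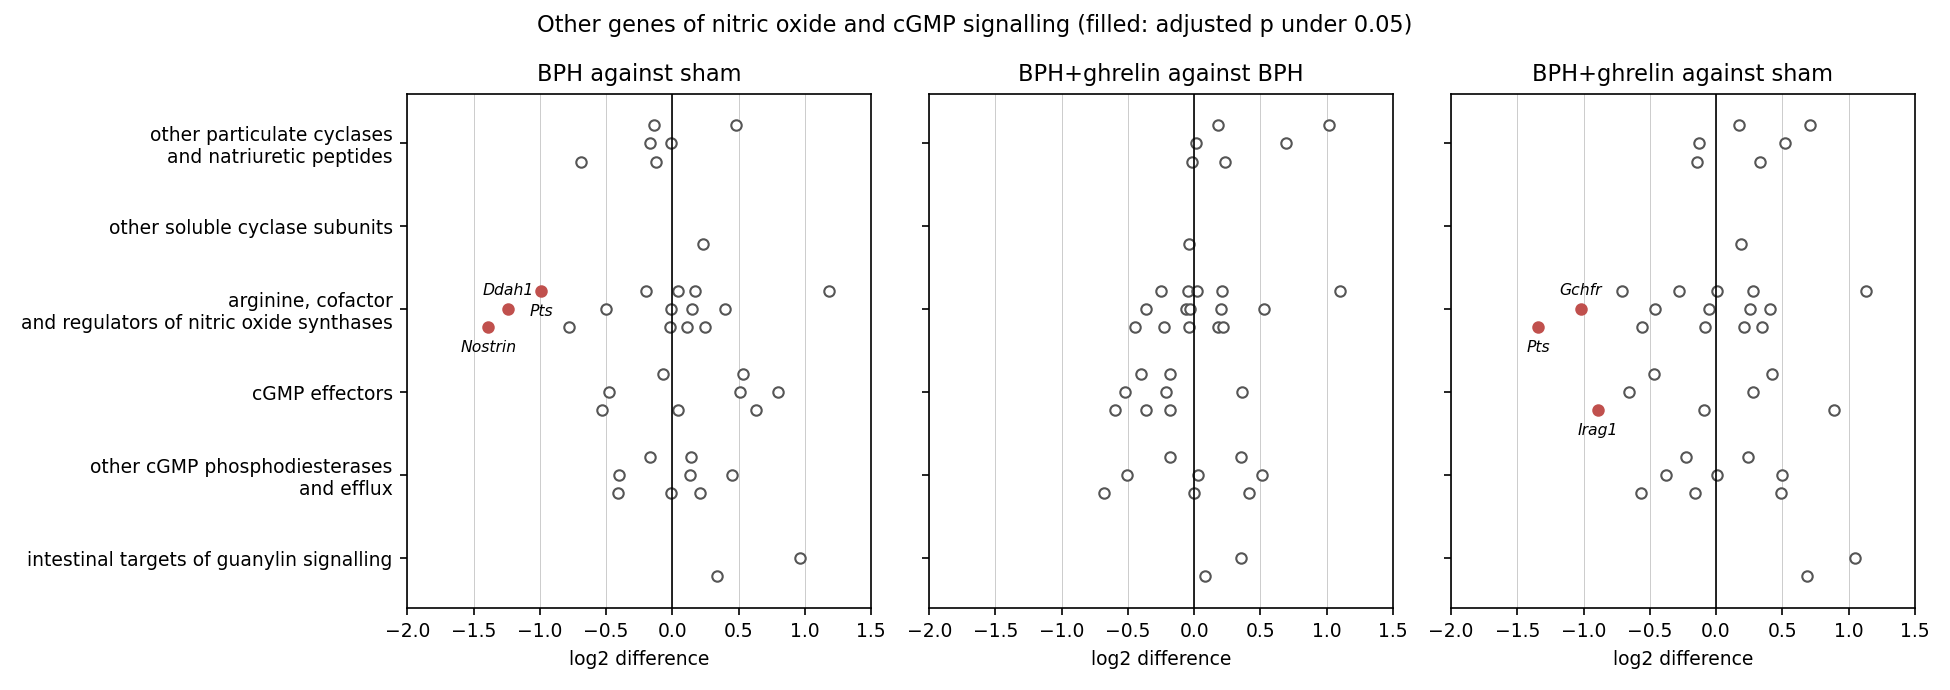
Log2 differences of the other genes of nitric oxide and cGMP signalling, by role (rows) and comparison (panels). Each circle is 1 tested gene, and filled circles with a name had an adjusted p under 0.05, which were 3, 0 and 3 genes, each with lower signal in the group named first.

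Pts, which encodes an enzyme of tetrahydrobiopterin synthesis, the cofactor of all nitric oxide synthases, fell in both BPH groups. It was at 7.56, 7.43 and 7.47 in sham, 6.51, 6.48 and 6.51 in BPH and 5.84, 6.24 and 6.35 in BPH+ghrelin. Replicates were tight and the groups did not overlap, with a log2 difference to sham of -0.99 ± 0.15 (SE) in BPH (adjusted p = 0.0142, limma) and -1.34 ± 0.15 (SE) in BPH+ghrelin (adjusted p = 0.00288, limma). The latter call was kept when any 1 array was left out, and the former was kept in 3 of 6 such fits and lost without sham 3, BPH 2 or BPH 3 (adjusted p up to 0.0908). With scan as a fixed block, the log2 difference was -0.54 in BPH (adjusted p = 0.747, limma) and -1.20 in BPH+ghrelin (adjusted p = 0.0474, limma), and after normexp correction it was -0.58 and -0.79 with both calls kept.

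Ddah1 and Nostrin fell in BPH against sham. Ddah1 encodes an enzyme that degrades a methylated arginine which inhibits the synthases, and was at 10.38, 9.76 and 10.11 in sham, 8.73, 8.87 and 8.94 in BPH and 9.81, 9.51 and 8.81 in BPH+ghrelin. Its log2 difference was -1.24 ± 0.26 (SE, adjusted p = 0.042, limma). Nostrin, a trafficking protein of the endothelial synthase, was at 5.27, 4.39 and 4.73 in sham, 3.66, 3.31 and 3.26 in BPH and 5.07, 4.18 and 4.30 in BPH+ghrelin, with a log2 difference of -1.39 ± 0.29 (SE, adjusted p = 0.0413, limma). Against BPH, BPH+ghrelin showed log2 differences of 0.53 for Ddah1 (adjusted p = 0.29, limma) and 1.1 for Nostrin (adjusted p = 0.0992, limma), which did not pass. Both calls in BPH were lost without sham 3 or without any 1 of the 3 BPH arrays, with adjusted p up to 0.165 for Ddah1 and 0.171 for Nostrin. With scan as a fixed block they were lost as well, at log2 differences of -1.87 (adjusted p = 0.453, limma) and -2.25 (adjusted p = 0.371, limma), and likewise without the filter on dim probes (adjusted p = 0.0624 and 0.0616) and in a fit of only the 6 arrays compared (adjusted p = 0.0577 and 0.0761). Nostrin differed by -0.28 after normexp correction (adjusted p = 0.0659), and Ddah1 by -0.99 as the mean of its probes (adjusted p = 0.0564).

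Gchfr and Irag1 fell in BPH+ghrelin against sham. Gchfr, a feedback regulator of cofactor synthesis, was at 9.93, 10.35 and 10.03 in sham, 9.61, 9.33 and 9.02 in BPH and 8.90, 9.11 and 9.25 in BPH+ghrelin, with a log2 difference of -1.02 ± 0.19 (SE, adjusted p = 0.0227, limma). Irag1, a substrate of Prkg1 that restrains calcium release from stores, was at 10.28, 9.66 and 10.07 in sham, 9.75, 9.45 and 9.23 in BPH and 9.24, 9.14 and 8.96 in BPH+ghrelin, with a log2 difference of -0.89 ± 0.20 (SE, adjusted p = 0.039, limma). The Gchfr call was lost without sham 3, BPH+ghrelin 1 or BPH+ghrelin 2 (adjusted p up to 0.1). The Irag1 call was kept only without sham 2. Both were lost with scan as a fixed block (adjusted p = 0.208 and 0.255, limma), and Irag1 also without the filter on dim probes (adjusted p = 0.0609) and with only the 6 arrays compared (adjusted p = 0.0629). In BPH against sham, Gchfr differed by -0.78 (adjusted p = 0.058, limma) and Irag1 by -0.53 (adjusted p = 0.148, limma).

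Without the 3 arrays that lay between the others in their group, 3 genes of all tested were called in BPH against sham, 0 in BPH+ghrelin against BPH and 2 in BPH+ghrelin against sham, compared to 849, 293 and 1207 with them. No member and no other pathway gene was called then, although the log2 differences were then close to those with all arrays, for instance -0.99 for Pts and -1.37 for Nostrin in BPH against sham. Fewer arrays were left in these fits, with 2 per group.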

How the data were processed

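Total RNA of prostates from 9 rats (3 sham, 3 BPH, 3 BPH+ghrelin) was labelled with Cy3 and hybridized by the authors to one-colour Agilent arrays. The deposited scanner files (Agilent Feature Extraction 11.0.1.1, header build rn4) hold processed signal intensity per spot, background-corrected by that software. The deposited value table holds the authors' log2 values after quantile normalization in GeneSpring. It was used as an alternative, and every column matched the array of its label more closely than any other array (Spearman 0.984 to 0.996), with a median of 5.25. Its offset and centring were not given in the sources used here.

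Here, control and outlier spots were left out (313 to 741 outlier spots per array, 0 saturated of 42877 spots), log2 intensity was averaged per probe and quantile normalized over 9 arrays in R 4.3.3. Genes were named by matching RefSeq accessions to the GRCr8 gene table (17998 of 30356 probes matched, 15163 symbols). A probe had to be well above background on at least 3 of 6 arrays compared, and the brightest passing probe stood for a gene. Groups were compared by limma 3.58.1 over all 9 arrays with Benjamini-Hochberg adjustment over all genes tested, and the script was tested on simulated data. The number of arrays limits the precision. Members, gene lists and markers were chosen with earlier results of these data known. Named genes were the 10 members, pathway genes that were called, markers and the 5 genes most correlated with Gucy2c. Markers named beside a list's sum were picked after their values were seen. A gene of the pathway list is not reported here and is in none of its counts. Bounds replace the dimmer group by the lowest signal well above background on each array. Alternatives were 75th percentile scaling, normexp background correction (offset 50), other filters and probe rules, 6-array fits, blocks for replicate number and scan, and left-out arrays.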

Additional observations from a re-analysis of the deposited data

How the results depend on the processing

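Calls depended on the arrays and the block used, whereas most log2 differences kept their direction. For genes called, BPH against sham gave 849, and 533 without the filter, 181 with only the 6 arrays compared, 2 with scan as a fixed block, 7084 with scan as a random block and 3 without the arrays that lie between (chosen after seeing the data), and leaving out 1 array gave 119 to 3069. BPH+ghrelin against BPH gave 293, and correspondingly 188, 2106, 2, 1833 and 0, with 502 after 75th percentile scaling and 3 to 396 when 1 array was left out. BPH+ghrelin against sham gave 1207, 85 with scan as a fixed block, 2 without the arrays that lie between and 226 to 1927 when 1 array was left out.

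Prkg1 entered the tests only through the BPH arrays, where it was high, so that nothing is read from its p-values, and it is named below only because the counts include it. Members called in BPH against sham were 0, and 4 with scan as a random block (Guca2a, Guca2b and Nos2, adjusted p 0.018, 0.0284 and 0.0212, besides Prkg1), with 0 to 3 when 1 array was left out (without sham 1, Guca2a besides Prkg1 and Guca2b, of which Guca2b was then above background on none of the sham arrays left and is not read either). In BPH+ghrelin against BPH they were 0, and 2 with only the 6 arrays compared (Guca2b, adjusted p 0.0487, besides Prkg1) and 1 with scan as a random block (Prkg1 alone), with 0 to 0 when 1 array was left out. The random block had a negative correlation (-0.216 to -0.208). Pathway genes called in BPH against sham were 3, and 1 without the filter, 1 with 6 arrays, 0 with a fixed and 13 with a random scan block, 0 without the arrays that lie between and 0 to 4 when 1 array was left out. In BPH+ghrelin against BPH they were 0, and 3 with 6 arrays and 1 with a random scan block, with 0 to 0 when 1 array was left out. In BPH+ghrelin against sham they were 3, and 5 after 75th percentile scaling, 1 with a fixed scan block, 0 without the arrays that lie between and 1 to 5 when 1 array was left out. The cause of these shifts was not tested. Fits with a fixed scan block compare BPH and sham only indirectly, through the BPH+ghrelin arrays.

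The methods describe no pairing of rats by replicate number. Correlations of same-numbered deviations ran from -0.18 to 0.38, which with 3 arrays per group cannot show that pairing is absent. With the replicate block, 242, 20 and 462 genes, 1, 1 and 0 members (Prkg1 alone, from which nothing is read) and 1, 0 and 1 pathway genes (Nostrin, and Pts in BPH+ghrelin against sham) were called in the 3 comparisons (limma). The other pathway calls were then past the threshold of 0.05, with adjusted p = 0.0542 for Pts and 0.0828 for Ddah1 in BPH against sham, and 0.0643 for Gchfr and 0.0566 for Irag1 in BPH+ghrelin against sham.

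Signs turned for differences that had not passed the test. In BPH against sham this was Nos2 (0.02) and Nos3 (-0.04) with a fixed scan block, Gucy1a1 without sham 1 (0.25) or BPH 2 (0.01), and Gucy1b1 without sham 2 (-0.04). In BPH+ghrelin against BPH it was Nos3, 0.09 with a fixed scan block and 0.04 without BPH+ghrelin 3. In BPH+ghrelin against sham it was Guca2b (-0.10) and Nos2 (-0.04) after 75th percentile scaling, Guca2b after normexp (-0.01), with a random scan block (0), without the arrays that lie between (-0.09) and without sham 2 (-0.11), sham 3 (-0.04), BPH+ghrelin 2 (-0.05) or BPH+ghrelin 3 (0), Nos3 in the deposited values (-0.38), Guca2a with a fixed scan block (0.16) and without sham 2 (0.41) or BPH+ghrelin 1 (0.21), Nos2 without sham 1 (-0.18) or BPH+ghrelin 3 (-0.12), and Gucy1a1 without sham 2 (-0.16). When 1 array was left out, these members ranged in BPH against sham from -0.41 to 0.25 (Gucy1a1) and -0.04 to 0.73 (Gucy1b1), in BPH+ghrelin against BPH from -0.57 to 0.04 (Nos3), and in BPH+ghrelin against sham from -0.50 to 0.41 (Guca2a), -0.11 to 0.15 (Guca2b), -0.18 to 0.42 (Nos2) and -0.16 to 0.50 (Gucy1a1). The measured Gucy2c difference between BPH and sham of -4.48 became -4.94 after 75th percentile scaling, -2.93 in the deposited values, -4.05 with a fixed scan block and -0.55 after normexp, whose offset raises dim signals. Signal over background limits what can be said of Gucy2c, Guca2b, Nos1, Nos3 and Prkg1.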
